A study of Homo sapiens with 9 samples.

Results

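Expression of the genes that make, break down and sense prostaglandin E2 (PGE2) was measured by RNA-seq in MDA-MB-231 breast cancer cells (Par) and in sub-populations of them selected in vivo for metastasis to lung (LM2) or brain (BrM2). The members were the 9 genes whose symbols in the count table are PTGS1, PTGS2, PTGES, PTGES2, PTGES3, PTGIS, HPGD, PTGER2 and PTGER4, out of 58884 genes in all. They are taken as a pathway, by symbol, and no threshold on their values was used. Each line had 3 libraries from cells harvested at different passages, all grown as monolayers in serum-containing medium with antibiotics, and the labels name no drug treatment and no genetic change for any of them. Each sub-population is a single derived line, and the replicates are therefore cultures of 1 line and not independent selections.

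Prostaglandins are lipid signals made from arachidonic acid. The cyclooxygenases COX1 (PTGS1) and COX2 (PTGS2) oxidise arachidonic acid to the unstable intermediate PGH2, terminal synthases convert PGH2 to PGE2 or to prostacyclin, and HPGD inactivates PGE2. PGE2 acts on the receptors EP2 (PTGER2) and EP4 (PTGER4), which raise cyclic AMP. COX1 is the constitutive form and COX2 the inducible form, and in breast cancer COX2 is known for its link to the passage of tumour cells across blood vessel walls in lung and brain.

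The promoter sequences of the cyclooxygenases and of the PGE2 receptors are shown, since the differences between lines that follow rest mainly on these 4 genes. Each is the 250 bases that end just before the gene's start in RefSeq (GRCh38.p14). Windows of this length were found for 8 of the 9 members. The 4 shown lie at chr9:122370283-122370532 on the plus strand for PTGS1, chr1:186680424-186680673 on the minus strand for PTGS2, chr14:52314062-52314311 on the plus strand for PTGER2 and chr5:40679665-40679914 on the plus strand for PTGER4. Capitals mark a TATA motif (TATAAA) or the core of a cyclic AMP response element (CGTCA), or their reverse complements where the match is on the minus strand of the gene.
PTGS1: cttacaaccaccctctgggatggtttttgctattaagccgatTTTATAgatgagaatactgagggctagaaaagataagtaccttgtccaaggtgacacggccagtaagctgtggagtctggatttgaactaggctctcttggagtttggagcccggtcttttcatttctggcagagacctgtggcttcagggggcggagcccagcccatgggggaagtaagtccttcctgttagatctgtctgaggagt
PTGS2: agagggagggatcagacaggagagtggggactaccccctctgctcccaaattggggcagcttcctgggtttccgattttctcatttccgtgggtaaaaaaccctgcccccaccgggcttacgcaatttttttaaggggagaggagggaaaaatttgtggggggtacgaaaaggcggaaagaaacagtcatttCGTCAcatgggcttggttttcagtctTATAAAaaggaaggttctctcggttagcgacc
PTGER2: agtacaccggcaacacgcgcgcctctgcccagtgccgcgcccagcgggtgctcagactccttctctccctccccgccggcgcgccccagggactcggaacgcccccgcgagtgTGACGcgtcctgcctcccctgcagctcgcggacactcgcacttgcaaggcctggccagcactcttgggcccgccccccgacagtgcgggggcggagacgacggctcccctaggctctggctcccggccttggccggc
PTGER4: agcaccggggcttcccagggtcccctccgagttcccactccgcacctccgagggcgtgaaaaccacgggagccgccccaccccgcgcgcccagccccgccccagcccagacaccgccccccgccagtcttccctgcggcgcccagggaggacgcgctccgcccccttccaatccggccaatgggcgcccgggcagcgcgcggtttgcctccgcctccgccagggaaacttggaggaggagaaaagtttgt

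The PTGS2 window held CGTCA at 58 to 54 bases and TATAAA at 32 to 27 bases before the start. The PTGS1 window held TATAAA on the opposite strand at 208 to 203 bases, and the PTGER2 window held CGTCA on the opposite strand at 137 to 133 bases before the start. Of the windows not shown, that of PTGES3 held CGTCA at 21 to 17 bases before the start. That of HPGD (chr4:174522489-174522738 on the minus strand) lay inside the gene's span given below, and not before its start there. The letters CACGTG (E-box), GGGANTT (NF-kB) and TGANTCA (AP-1), also searched on both strands, were in none of the 8 windows, and no match overlapped another. Only these letters were searched, so sites of the same factors with other letters could be present. Among 35116 promoters of the same length, 21.2% held CGTCA, 10.7% TATAAA, 14.1% GGGANTT, 6.57% TGANTCA and 6.34% CACGTG.

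Counts on genes totalled 14371858 to 24511786 per library (median 22055215), and 3 counts corresponded to 0.115 to 0.221 CPM, which are counts scaled to a common library size. A filter on low counts kept 13055 genes, among them 6 of the 9 members. HPGD, PTGER2 and PTGIS were below it, and the first and second of these were tested in a fit without the filter over 34056 genes. Replicate 1 of each line stood apart from replicates 2 and 3, and its deviation from the mean of its line rose with the GC content of genes (Spearman's rho = 0.80 across 12989 genes, which are not independent). The mesenchymal genes VIM, CD44, AXL, CAV1 and MSN that mark MDA-MB-231 summed to 4596 to 7512 CPM per library. Of the 7 epithelial and luminal genes known to be low in this line, CLDN4 was at 95.04 ± 19.6 CPM (SD, n = 3) in Par, 5.83 ± 1.69 in LM2 and 19.9 ± 11.7 in BrM2, and the list summed to 90.3 to 130.1 CPM in Par, 15.5 to 15.8 in LM2 and 23.1 to 48.6 in BrM2. The 5 leukocyte genes summed to 1.36 to 4.98 CPM with CD3E and CD68 at or under 3 counts, 4 endothelial genes to 6.71 to 13.1 CPM, and 4 lung epithelial genes to 2.86 to 5.45 CPM with SFTPB, SFTPC and SCGB1A1 at or under 3 counts. The 4 neuronal and glial genes summed to 175.5 to 193.4 CPM in Par, 116.9 to 123.4 in LM2 and 143 to 154.7 in BrM2, most of it from MBP, and RBFOX3 was at or under 3 counts. The part of these lists in the results was not tested.

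PTGER4 and PTGS1 moved in opposite directions in BrM2 compared with Par, EP4 receptor mRNA rising 2.69-fold and COX1 mRNA falling 3.09-fold. COX2 mRNA was 4.37-fold higher in LM2 and 3.63-fold higher in BrM2 than in Par, without overlap of the libraries. Neither difference passed in the main fit, which left out the replicate number. Both passed with the replicate number in the model, in DESeq2 and without the filter on low counts, but not with only the lines compared in the fit. The main PGE2 synthase PTGES was at about the same level in Par and LM2 and lower in BrM2, where it did not pass in the main fit. It passed there with the replicate number in the model, or with replicate 1 of every line left out. PTGES2 and PTGES3 did not pass the test in any comparison. Differences were called at an adjusted p under 0.05 in edgeR's quasi-likelihood test, with the Benjamini-Hochberg method over all genes tested.

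PTGS1 (ENSG00000095303, chr9:122370533-122395703), which codes for COX1, was at 13.3, 14.7 and 9.32 CPM in the 3 Par libraries, 9.02, 5.90 and 6.68 CPM in LM2 and 5.23, 4.44 and 2.44 CPM in BrM2. Every Par library was above every LM2 library, and every LM2 library above every BrM2 library. The means were 12.4 ± 2.79, 7.20 ± 1.63 and 4.04 ± 1.44 CPM (SD, n = 3 each). PTGS1 fell in BrM2 compared with Par (log2 fold change -1.63 ± 0.34, SE, edgeR adjusted p = 0.013), lower in 3 of 3 same-numbered pairs. In bulk RNA, fewer cells with an mRNA and less of it per cell cannot be told apart. With any 1 library left out the value stayed between -1.85 and -1.36, and the call was lost without Par replicate 2 (-1.49, adjusted p = 0.056). The step from Par to LM2 (-0.79 ± 0.33, adjusted p = 0.21) and that from LM2 to BrM2 (-0.84 ± 0.33, adjusted p = 0.19) did not pass, and both passed with the replicate number as a block (adjusted p = 0.014 and 0.010). With replicate 1 of every line left out under the same block, neither passed (adjusted p = 0.054 and 0.058).

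PTGS2 (ENSG00000073756, chr1:186671791-186680423), which codes for COX2, had 2, 10 and 39 counts in Par, 52, 98 and 80 in LM2 and 37, 63 and 52 in BrM2. On the CPM scale these were 0.105, 0.482 and 1.53 in Par, 2.58, 3.99 and 3.05 in LM2 and 2.72, 2.77 and 2.48 in BrM2. The Par libraries spread over the widest range on the log scale, with replicate 3 the highest, yet all were below every LM2 and BrM2 library. PTGS2 passed the filter on low counts through LM2 and BrM2, where it was high, and not through Par. In LM2 the log2 fold change against Par was 2.13 ± 0.63 (SE, 95% confidence interval 0.70 to 3.56, edgeR adjusted p = 0.077), and it passed with the block (2.17, adjusted p = 0.0055), in DESeq2 (2.19, adjusted p = 0.0064), without the filter on low counts (adjusted p = 0.0047) and without replicate 1 of every line (1.76, adjusted p = 0.017, or 1.79 and 0.037 with the block). It did not pass with only the 2 lines in the fit (adjusted p = 0.14), with relative log expression (0.074) or with filterByExpr as the filter (0.070). In BrM2 it was 1.86 ± 0.64 (0.42 to 3.30, adjusted p = 0.098), with 1.90 under the block (adjusted p = 0.010), 1.91 in DESeq2 (adjusted p = 0.019), 1.86 without the filter (adjusted p = 0.013) and 1.36 without replicate 1 of every line (adjusted p = 0.041). It did not pass without replicate 1 under the block (1.38, adjusted p = 0.069), with only the 2 lines (0.14), with relative log expression (0.094) or with filterByExpr (0.085). Leaving out Par replicate 3 raised the values to 3.40 in LM2 (adjusted p = 0.011) and 3.13 in BrM2 (adjusted p = 0.012). The 2 sub-populations overlapped in PTGS2, with a difference of BrM2 from LM2 of -0.27 on the log2 scale (95% confidence interval -1.60 to 1.05, adjusted p = 0.86). Exons of PTGS2 share 219 bases with the antisense RNA PACERR, which had a mean of 2.33 counts, and the strand that was counted is not given in the sources used here.

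**Figure D1:**
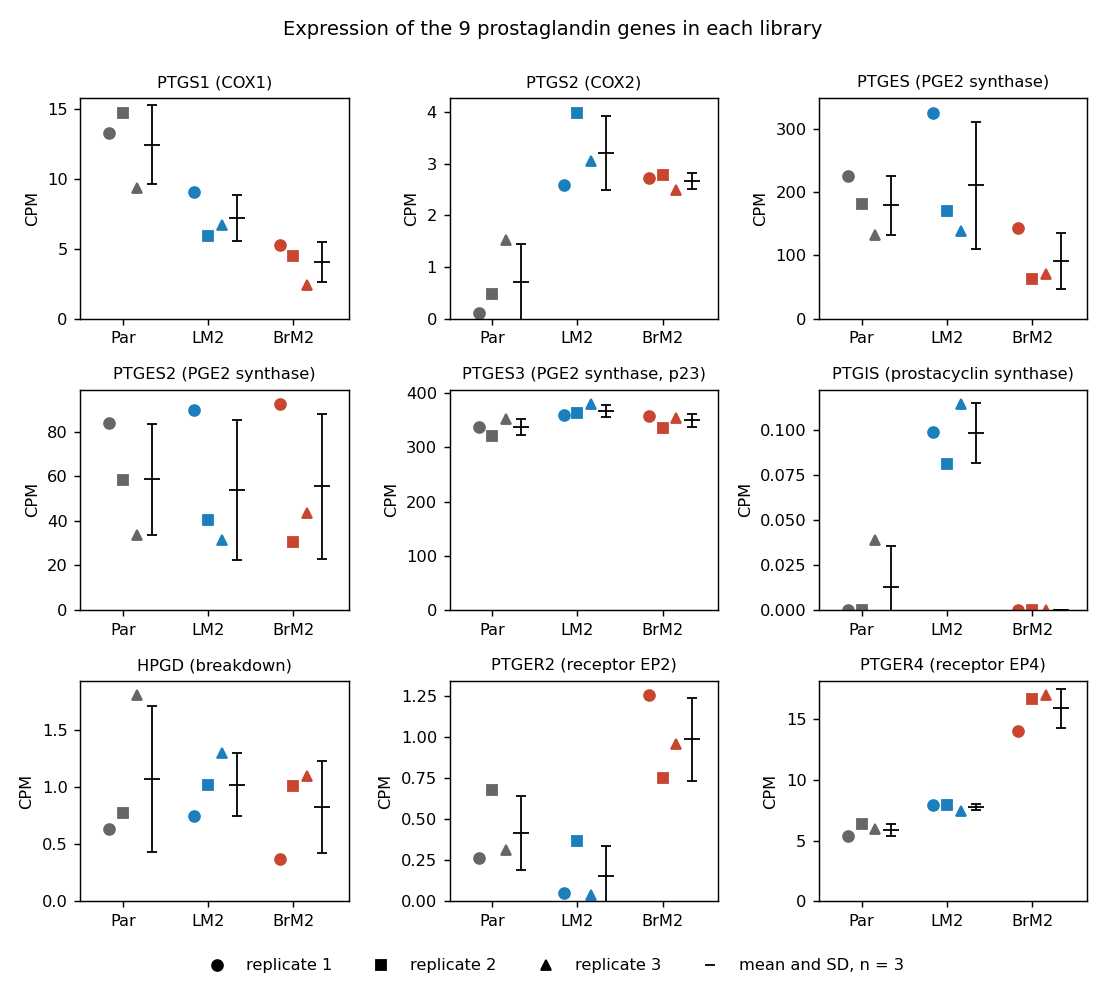
Expression of the 9 prostaglandin genes in CPM (vertical axes from 0, one scale per gene) in the Par, LM2 and BrM2 libraries, with symbols for the replicate numbers and black bars for the mean and SD of 3 libraries, cut off at 0. PTGS1 steps down from Par to BrM2, PTGS2 is between 0.105 and 1.53 CPM in Par and at least 2.48 CPM in the others, and PTGER4 is at 14.1 to 17.0 CPM in BrM2 against 5.40 to 7.93 CPM elsewhere.

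Since COX1 and COX2 catalyse the same step, their levels were compared per kilobase of exon. The exon length of a gene was the union of exons over all its annotated transcripts. In Par, PTGS1 was at 2.15 ± 0.482 CPM per kb (SD, n = 3) and PTGS2 at 0.129 ± 0.134, so that cyclooxygenase mRNA was mostly COX1. PTGS2 made up 0.827%, 3.34% and 14.7% of the summed cyclooxygenase level in the Par libraries, 23.2%, 41.6% and 32.5% in LM2 and 35.5%, 39.7% and 51.8% in BrM2. The share of 0.827% rests on 2 counts of PTGS2, under the 3 counts taken as the floor. All Par libraries were below all others, while LM2 and BrM2 overlapped. The share differed from Par by 26.1 percentage points in LM2 and 36.0 in BrM2 (2-sided exact permutation p = 0.1 for each, the smallest that 3 against 3 libraries allow), and BrM2 differed from LM2 by 9.89 percentage points (exact permutation p = 0.3). The sum of both genes was 2.31, 2.63 and 1.89 CPM per kb in Par, 2.03, 1.75 and 1.71 in LM2 and 1.40, 1.27 and 0.874 in BrM2. In BrM2 the sum was below that of every Par and LM2 library, and from Par to BrM2 the loss of COX1 mRNA was larger on this scale than the gain of COX2 mRNA.

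**Figure D2:**
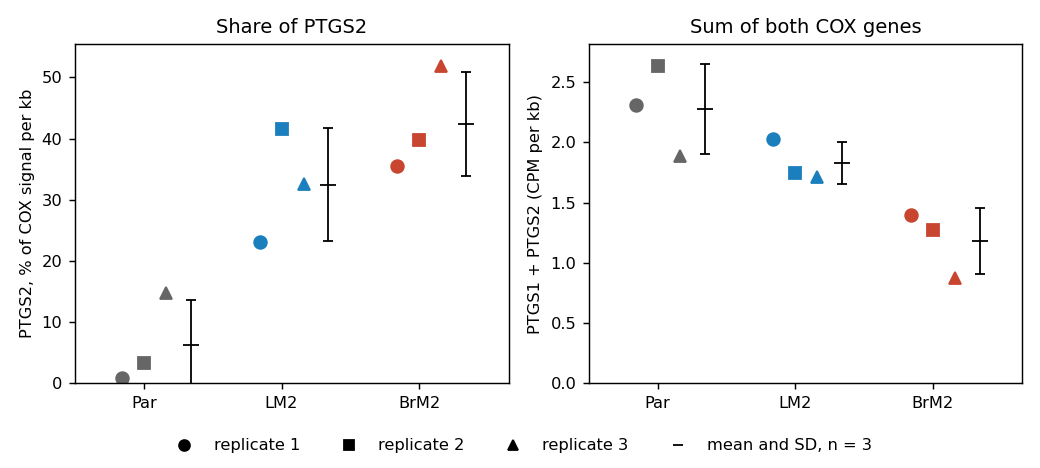
Left, PTGS2 as a percentage of the summed PTGS1 and PTGS2 level per kilobase in each library. Right, that sum in CPM per kb, with symbols for the replicate numbers and black bars for the mean and SD of 3 libraries, cut off at 0. The share is 0.827% to 14.7% in Par and 23.2% to 51.8% in the sub-populations, while the sum is lowest in BrM2. The lowest share rests on 2 counts of PTGS2.

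Of the terminal synthases, PTGES (ENSG00000148344, chr9:129738349-129753042) codes for the inducible microsomal PGE2 synthase that works with COX2. Its level was 225, 180.4 and 132 CPM in Par, 325, 169.7 and 138 CPM in LM2 and 143, 62.1 and 69.7 CPM in BrM2. Replicate 1 was the highest library of each line, the lines overlapped, and within each replicate number BrM2 was below both other lines. The log2 fold change of BrM2 was -0.97 ± 0.42 against Par (SE, edgeR adjusted p = 0.19) and -1.21 ± 0.42 against LM2 (adjusted p = 0.14), and with the block -1.04 (adjusted p = 0.00043) and -1.20 (adjusted p = 0.00025). Without replicate 1 of every line, PTGES fell in BrM2 against Par (-1.23, adjusted p = 0.0011) and against LM2 (-1.21, adjusted p = 0.0018). The difference from LM2 also passed without BrM2 replicate 1 alone (-1.68, adjusted p = 0.045) and without the filter on low counts (adjusted p = 0.029). LM2 did not differ detectably from Par (0.24, 95% confidence interval -0.70 to 1.18, adjusted p = 0.85), and this sign turned with the library left out (-0.22 to 0.47).

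PTGES2 (ENSG00000148334, chr9:128120693-128128440), a membrane-associated PGE2 synthase, was at 83.7, 58.2 and 33.7 CPM in Par, 89.6, 40.5 and 31.5 CPM in LM2 and 92.3, 30.5 and 43.5 CPM in BrM2. Replicate 1 was the highest in every line, and the lines overlapped throughout. PTGES2 has a GC content of 59.2%, above the median of 47.6% over tested genes, and its deviation in replicate 1 (0.80 on the log2 scale) was at the 98.7th percentile of those genes. None of its 3 comparisons passed, with log2 fold changes of -0.12 to 0.04 and adjusted p of 0.95 to 0.98. For PTGES the deviation of replicate 1 was 0.61 (GC content 56.9%) and for PTGS2 it was -0.59 (GC content 38.0%), and the part of GC content in the differences between lines was not tested.

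PTGES3 (ENSG00000110958, chr12:56663349-56688284), the HSP90 co-chaperone p23 that also has PGE2 synthase activity, was at 338, 322 and 353 CPM in Par, 359, 364 and 380.1 CPM in LM2 and 359, 336 and 355 CPM in BrM2. It was the steadiest member. LM2 libraries were all above Par and BrM2 libraries, but by little: the 95% confidence interval of the log2 fold change of LM2 against Par was -0.19 to 0.44 (edgeR adjusted p = 0.74) and that of BrM2 against Par -0.26 to 0.37 (adjusted p = 0.89). Of its 50-base stretches, 6.96% also occur in other genes, most often in the pseudogene PTGES3P1 (mean of 27.3 counts), so that a small part of its reads could have been split. PTGIS (ENSG00000124212, chr20:49503874-49568137), the prostacyclin synthase, had 0, 0 and 1 counts in Par, 2, 2 and 3 in LM2 and 0 in each BrM2 library, too few for a fold change.

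HPGD (ENSG00000164120, chr4:174490175-174522893), the dehydrogenase that inactivates PGE2, had 12, 16 and 46 counts in Par, 15, 25 and 34 in LM2 and 5, 23 and 23 in BrM2. The lines overlapped, and the log2 fold changes in the fit without the filter were -0.07 for LM2 against Par, -0.34 for BrM2 against Par and -0.27 for BrM2 against LM2, with edgeR adjusted p of 0.78 or more.

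PTGER4 (ENSG00000171522, chr5:40679915-40746800), which codes for EP4, was at 5.40, 6.37 and 5.95 CPM in Par, 7.93, 7.93 and 7.44 CPM in LM2 and 14.1, 16.6 and 17.0 CPM in BrM2. No line overlapped another, and BrM2 stood well above both. The means were 5.90 ± 0.486, 7.77 ± 0.281 and 15.9 ± 1.58 CPM (SD, n = 3 each). PTGER4 rose in BrM2 against Par (log2 fold change 1.43 ± 0.19, SE, edgeR adjusted p = 0.0014), and did so with any 1 library left out (1.37 to 1.51, largest adjusted p = 0.010). It also rose in BrM2 against LM2 (1.03 ± 0.19, 2.05-fold, adjusted p = 0.010), a call that was lost without LM2 replicate 3 (adjusted p = 0.051), without BrM2 replicate 3 (0.98, adjusted p = 0.056), with only these 2 lines in the fit (adjusted p = 0.050, just over the threshold), and with genes of low counts kept in the test (1.03, adjusted p = 0.069). LM2 was 1.31-fold above Par (0.39 ± 0.19, adjusted p = 0.29). Per kilobase, EP4 and COX1 mRNA overlapped in Par (PTGER4 at 1.52 to 1.80 and PTGS1 at 1.61 to 2.54 CPM per kb), while in BrM2 PTGER4 was at 3.97 to 4.78 and PTGS1 at 0.421 to 0.904 CPM per kb.

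PTGER2 (ENSG00000125384, chr14:52314312-52328598), which codes for EP2, had 5, 14 and 8 counts in Par, 1, 9 and 1 in LM2 and 17, 17 and 20 in BrM2. In CPM the BrM2 libraries (1.25, 0.748 and 0.955) were all above those of Par (0.262, 0.675 and 0.313) and of LM2 (0.0496, 0.366 and 0.0382), and Par and LM2 overlapped. In the fit without the filter PTGER2 rose in BrM2 against LM2 (log2 fold change 2.61 ± 0.64, SE, edgeR adjusted p = 0.0095), also with any 1 library left out (2.12 to 4.30, largest adjusted p = 0.038), but not without replicate 3 of every line (2.19, adjusted p = 0.12). There 4.25% of genes were called. Against Par the difference was 1.22 ± 0.57 (adjusted p = 0.29, with 6.36% of genes called), or 1.26 with the block (adjusted p = 0.022, with 19.0% of genes called). LM2 against Par, where 4.40% of genes were called, gave -1.39 ± 0.67 (adjusted p = 0.40), which became -3.08 (adjusted p = 0.032) without LM2 replicate 2, the LM2 library with 9 of its 11 counts. At these counts a change of receptor mRNA rests on few reads, and the intervals cover only the spread among the libraries.

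Counted over the 6 members tested, LM2 against Par had 0 called, where 8.69% of all genes were called. At an unadjusted p under 0.05 edgeR had 2 of the 6, beside 20.2% of all genes, DESeq2 called 1, beside 14.5%, and edgeR with the block called 2, beside 34.5%. In 4 of the 6 the LM2 and Par libraries did not overlap, as in 25.2% of all genes. BrM2 against Par had 2 called (1 higher and 1 lower), where 13.3% of all genes were called, and 4 with the block, where 42.7% were. There 4 had an unadjusted p under 0.05, beside 25.0% of all genes, and DESeq2 called 3, beside 19.3%. The libraries did not overlap in 3 of the 6, as in 31.3% of all genes. BrM2 against LM2 had 1 called beside 8.10% of all genes, 3 with the block beside 37.5%, and 3 without overlap beside 23.1%. In that comparison 3 had an unadjusted p under 0.05, beside 20.9%, and DESeq2 called 1, beside 14.0%. The median log2 fold change of the 6 was 0.18 in LM2 against Par, -0.01 in BrM2 against Par and -0.17 in BrM2 against LM2, and that of all genes tested was 0.01, -0.02 and -0.03. The genes thus had no common direction, and comparisons with Par share the Par libraries.

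**Figure D3:**
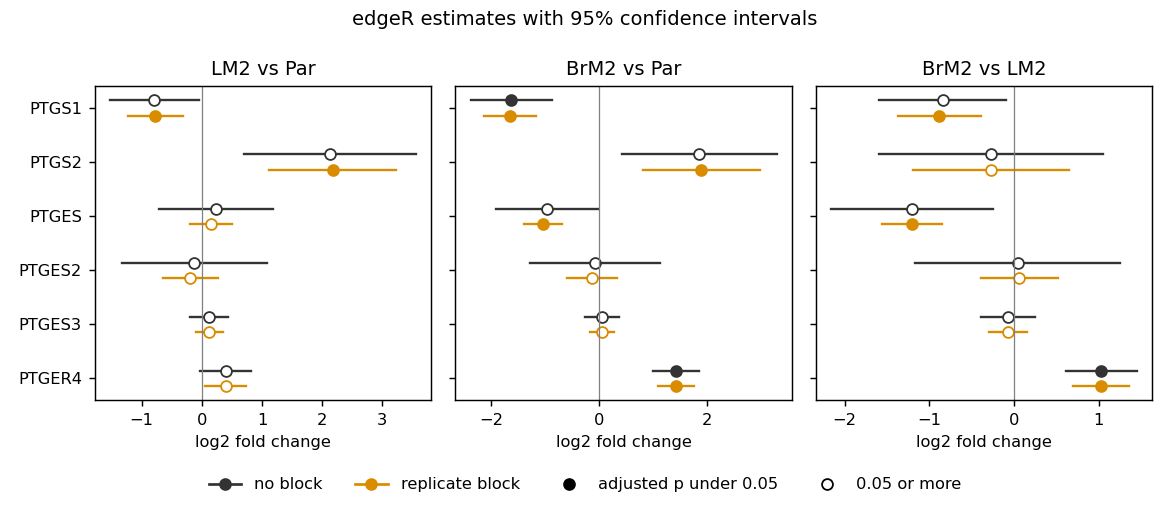
Log2 fold changes (horizontal axes) of the 6 members tested in the 3 comparisons, estimated in edgeR without (dark) and with (orange) the replicate number as a block. Lines are 95% confidence intervals, filled points have an adjusted p under 0.05. PTGER4 and PTGS1 are filled in BrM2 vs Par in both fits, whereas PTGS2 and PTGES are filled only with the block.

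Compared per kilobase of exon, the order of the members in Par was PTGES3 (99.3 ± 4.59 CPM per kb, SD, n = 3), PTGES (94.7 ± 24.6), PTGES2 (9.62 ± 4.11), PTGS1 (2.15 ± 0.482), PTGER4 (1.67 ± 0.137), HPGD (0.193 ± 0.116), PTGER2 (0.169 ± 0.0914), PTGS2 (0.129 ± 0.134) and PTGIS (0.00234 ± 0.00406). Neighbours overlapped within the pairs PTGES3 and PTGES, PTGS1 and PTGER4, HPGD and PTGER2, and PTGER2 and PTGS2. The order also depends on the exon lengths, which take in all annotated transcripts, and which transcripts the cells used was not tested. In LM2 PTGS2 was at 0.585 ± 0.131 CPM per kb, above HPGD at 0.184 ± 0.0501 and below PTGS1 at 1.24 ± 0.281. In BrM2 PTGES was at 48.4 ± 23.5 CPM per kb against 103 ± 3.50 for PTGES3, and PTGS2 (0.485 ± 0.0282) came close to PTGS1 (0.698 ± 0.249). The synthases of PGE2 were thus the most abundant of these mRNAs in every line, and the cyclooxygenases that supply them were far lower.

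Around the members, 83 other genes were listed, of which 54 were tested. The lists cover arachidonate release and return to membranes, prostanoid synthesis, transport, breakdown and reception, the lipoxygenase branch and receptor signalling. They also cover early genes that cyclic AMP induces, transcription factors that act on PTGS2 and proteins that set the stability of its mRNA. In LM2 against Par 2 rose and 6 fell, in BrM2 against Par 2 rose and 7 fell, and in BrM2 against LM2 1 rose and 5 fell. The shares of all genes called higher and lower were 4.17% and 4.52%, 6.25% and 7.02%, and 4.11% and 3.99% in these comparisons. The median log2 fold change of the 54 was -0.06, -0.08 and -0.04. With the block, 22, 23 and 21 of them were called, where the block gave 34.5%, 42.7% and 37.5% of all genes. The 15 genes called without it in at least 1 comparison are described list by list. Of these, PTGFR, NR4A1, SIK1 and ALOX5AP passed the filter on low counts only through LM2 and ALOX5 only through Par, the lines in which they were highest, and the calls of these 5 were also made in the fit without the filter. CEBPD passed the filter through Par and LM2 and not through BrM2, the line in which it fell (largest normalized counts 90.6, 49.9 and 23.6).

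Release of arachidonate gave 1 call. MGLL, the monoacylglycerol lipase that frees arachidonate from 2-arachidonoylglycerol, was at 47.2, 39.4 and 35.0 CPM in Par, 122, 68.6 and 65.5 CPM in LM2 and 187, 93.9 and 112 CPM in BrM2. Both sub-populations lay above Par without overlap. It rose in BrM2 against Par (log2 fold change 1.69 ± 0.34, SE, edgeR adjusted p = 0.011), except without Par replicate 2 (adjusted p = 0.055) or Par replicate 3 (0.052), and was 1.08 ± 0.33 higher in LM2 (adjusted p = 0.089, with the block 0.00039). The cytosolic phospholipase PLA2G4A, which releases arachidonate from membranes and was singled out after its values were seen, was at 0.943, 1.49 and 1.33 CPM in Par, 2.48, 6.83 and 8.47 CPM in LM2 and 1.18, 6.25 and 5.97 CPM in BrM2. LM2 lay above Par, and replicate 1 was the lowest library of LM2 and of BrM2. Its log2 fold change was 2.23 ± 0.64 in LM2 (adjusted p = 0.069, with the block 0.00030) and 1.84 ± 0.64 in BrM2 (adjusted p = 0.10, with the block 0.0012). It passed in LM2 without LM2 replicate 1 (adjusted p = 0.029) or BrM2 replicate 1 (2.23, adjusted p = 0.017), and in BrM2 without BrM2 replicate 1 (2.27, adjusted p = 0.017). The secreted phospholipases PLA2G2A and PLA2G5 had 0 counts in all libraries. None of the 4 genes that return arachidonate to membranes passed without the block. With it 2 did in LM2 against Par, 1 in BrM2 against Par and 2 in BrM2 against LM2, all of them calls of MBOAT7 and ACSL4. MBOAT7, an acyltransferase, was at 195 ± 54.3 CPM in Par, 135 ± 55.2 in LM2 and 209 ± 70.3 in BrM2, and its differences of LM2 from the other lines passed with the block (adjusted p = 0.0075 and 0.0035), also without replicate 1 (0.023 and 0.019). ACSL4, an acyl-CoA synthetase, was at 158 ± 68.4, 207 ± 88.4 and 121 ± 55.1 CPM, with adjusted p under the block of 0.039 for LM2 against Par, 0.021 for BrM2 against Par and 0.00076 for BrM2 against LM2, of which the last passed also without replicate 1 (0.013).

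Of the synthases of other prostanoids, 5 of 7 were tested, and 2 fell in LM2 and in BrM2 against Par. TBXAS1, the thromboxane synthase, was at 15.2, 14.1 and 14.8 CPM in Par, 5.75, 3.66 and 4.54 CPM in LM2 and 5.74, 4.88 and 4.11 CPM in BrM2. It fell by 1.66 ± 0.24 on the log2 scale in LM2 (edgeR adjusted p = 0.0028) and fell by 1.59 ± 0.24 in BrM2 (adjusted p = 0.0025), with any 1 library left out. AKR1C3, an aldo-keto reductase that makes PGF2alpha and 11beta-PGF2alpha, was at 112, 86.0 and 86.8 CPM in Par, 50.9, 30.2 and 46.1 CPM in LM2 and 16.1, 15.2 and 18.0 CPM in BrM2. The 3 lines did not overlap. AKR1C3 fell in BrM2 against Par (-2.53 ± 0.25, adjusted p = 0.00029) and against LM2 (-1.37 ± 0.24, adjusted p = 0.0081), each with any 1 library left out. It also fell in LM2 against Par (-1.16 ± 0.24, adjusted p = 0.016), where the call was lost without Par replicate 1, LM2 replicate 2 or LM2 replicate 3 (adjusted p = 0.051 to 0.062). AKR1B1, another PGF2alpha synthase and the most abundant of the list, was at 415 ± 153 CPM in Par, 312 ± 175 in LM2 and 305 ± 62.1 in BrM2 and did not pass, but did with the block in LM2 against Par (adjusted p = 0.037). The prostaglandin D synthases PTGDS and HPGDS had 0 counts in all libraries.

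Of the 3 reductases that act after HPGD, PTGR1 fell and PTGR3 rose in BrM2 against Par, and PTGR2 did not pass in any comparison (1.95 ± 0.731 CPM in Par, 1.94 ± 0.933 in LM2 and 1.40 ± 0.332 in BrM2). PTGR1, which reduces 15-keto-prostaglandins, was at 68.0, 64.6 and 61.4 CPM in Par, 53.3, 50.1 and 54.4 CPM in LM2 and 23.1, 23.9 and 25.6 CPM in BrM2. It fell in BrM2 against Par (log2 fold change -1.42 ± 0.16, edgeR adjusted p = 0.00059) and against LM2 (-1.12 ± 0.16, adjusted p = 0.0029), with any 1 library left out. PTGR3, a reductase of the same class, was at 22.9 to 25.1 CPM in Par, 25.9, 30.3 and 27.9 CPM in LM2 and 38.7, 44.7 and 41.2 CPM in BrM2. It rose in BrM2 against Par (0.81 ± 0.17, adjusted p = 0.013), a call lost without Par replicate 2 or 3 or BrM2 replicate 2 or 3 (adjusted p = 0.055 to 0.067) and in the fit without the filter (0.12). Against LM2 it gave 0.57 (adjusted p = 0.079, with the block 0.0049). In this list 4 of 5 genes were tested, and none passed in LM2 against Par, where also none passed with the block.

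Of the other 7 prostanoid receptors only PTGFR, the receptor of PGF2alpha, was tested. PTGFR had 5, 18 and 17 counts in Par, 43, 86 and 118 in LM2 and 4, 16 and 14 in BrM2, LM2 being above every library of the other lines. It rose in LM2 by 2.48 ± 0.48 on the log2 scale against Par (edgeR adjusted p = 0.013, without the filter 0.00033), and fell in BrM2 against LM2 (-2.55 ± 0.49, adjusted p = 0.013, without the filter 0.00030). The first call was lost without Par replicate 3, LM2 replicate 2 or LM2 replicate 3 (adjusted p = 0.052 to 0.053) and the second without BrM2 replicate 3 (adjusted p = 0.058). BrM2 against Par gave -0.07 ± 0.52 (adjusted p = 0.96). EP1 (PTGER1), EP3 (PTGER3) and the prostacyclin receptor (PTGIR) had at most 2, 6 and 2 counts in any library, and PTGDR had 0.

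In the lipoxygenase branch, which turns arachidonate into leukotrienes, 5 of 13 genes were tested. ALOX5, the 5-lipoxygenase, had 130, 110 and 121 counts in Par, 1, 5 and 4 in LM2 and 10, 20 and 5 in BrM2, so that all Par libraries were far above the rest. ALOX5 fell by 5.27 ± 0.55 on the log2 scale in LM2 (edgeR adjusted p = 0.00059) and fell by 3.18 ± 0.47 in BrM2 (adjusted p = 0.0024) against Par, with any 1 library left out. ALOX5AP, which presents arachidonate to ALOX5, had 32, 28 and 55 counts in Par, 74, 65 and 32 in LM2 and 3, 0 and 1 in BrM2. It fell in BrM2 against Par (adjusted p = 0.0062) and against LM2 (adjusted p = 0.0048), with any 1 library left out, and the summed counts scaled to library size were 25.2 times as high in Par (95% exact counting interval 9.57 to 94.0) and 34.5 times as high in LM2 (13.2 to 128.0) as in BrM2. LTA4H, the most abundant of the list, was at 106 ± 16.5 CPM in Par, 88.2 ± 15.2 in LM2 and 115 ± 18.3 in BrM2 and did not pass, but did with the block in BrM2 against LM2 (adjusted p = 0.013). In that comparison ALOX5 gave 2.09 (adjusted p = 0.068, with the block 0.015).

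Of 18 signalling genes behind EP2 and EP4, 13 were tested, and 3 fell in LM2 against Par. ADCY7, an adenylyl cyclase, was at 10.8, 17.2 and 9.28 CPM in Par, 3.97, 4.03 and 4.43 CPM in LM2 and 11.5, 6.56 and 10.7 CPM in BrM2. It fell by 1.58 ± 0.31 on the log2 scale in LM2 against Par (edgeR adjusted p = 0.013), except without Par replicate 2, LM2 replicate 2 or LM2 replicate 3 (adjusted p = 0.051 to 0.067). It was higher in BrM2 than in LM2 by 1.21 ± 0.31 (adjusted p = 0.046), a call that held with Par replicate 2 or BrM2 replicate 2 left out and was lost without each of the other 7 libraries (adjusted p = 0.056 to 0.16). ADCY9, another adenylyl cyclase, fell in LM2 against Par (-1.02 ± 0.22, adjusted p = 0.020), and so did PDE4B, a phosphodiesterase that breaks down cyclic AMP (-1.01 ± 0.20, adjusted p = 0.014). The ADCY9 call was lost without Par replicate 1 or 2 or LM2 replicate 2 or 3 (adjusted p = 0.069 to 0.093), and the PDE4B call without Par replicate 1 or LM2 replicate 3 (adjusted p = 0.055 to 0.064) or without the filter (0.065). With the block ADCY9 passed as lower in BrM2 than in Par (40.3 and 60.3 CPM, adjusted p = 0.0089). PDE4B passed with the block as higher in BrM2 than in LM2 (17.1 and 10.2 CPM, adjusted p = 0.0040). GNAS, the stimulatory G protein that both receptors use, was the most abundant of the list and did not pass.

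Of the early genes that cyclic AMP induces, 5 of 7 listed were tested. NR4A1, an orphan nuclear receptor, was at 0.472, 0.675 and 0.744 CPM in Par, 5.65, 3.21 and 1.98 CPM in LM2 and 1.84, 0.616 and 0.812 CPM in BrM2. LM2 libraries were above all others. NR4A1 rose in LM2 against Par (log2 fold change 2.49 ± 0.52, SE, edgeR adjusted p = 0.019), except without any 1 of the Par libraries or LM2 replicate 2 (adjusted p = 0.054 to 0.080). Between BrM2 and LM2 it gave -1.77 (adjusted p = 0.073, with the block 0.0040). SIK1, a kinase of the same response, was at 2.92, 1.87 and 1.26 CPM in LM2 and 0.589, 0.308 and 0.525 CPM in BrM2, and fell in BrM2 against LM2 (-2.10 ± 0.41, adjusted p = 0.015, without the filter 0.0037), except without BrM2 replicate 2 or 3 (adjusted p = 0.073 and 0.062). NR4A2 went the other way from NR4A1, at 3.98, 5.40 and 13.5 CPM in Par and 2.87, 2.07 and 1.48 CPM in BrM2. It fell in BrM2 against Par (-1.85 ± 0.48, adjusted p = 0.034), a call that 5 of the 9 libraries each took away when left out. Without Par replicate 3 it was -1.14 (adjusted p = 0.10), and without Par replicate 2, LM2 replicate 2, BrM2 replicate 2 or BrM2 replicate 3 the adjusted p was 0.057 to 0.14. CREM, the most abundant of the list, was at 21.8 ± 0.790 CPM in Par, 25.6 ± 2.81 in LM2 and 32.1 ± 1.90 in BrM2 and did not pass, but did with the block in BrM2 against Par (adjusted p = 0.0053). With the block SIK1 passed as higher in LM2 than in Par (2.02 and 0.822 CPM, adjusted p = 0.013). NR4A2 passed as lower in LM2 than in Par (3.10 and 7.63 CPM, adjusted p = 0.041). The cyclic AMP genes therefore showed no common direction.

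Of the 7 transcription factors known to act on PTGS2, CEBPD fell in BrM2. Its levels were 4.14, 2.22 and 1.80 CPM in Par and 0.176 to 1.105 CPM in BrM2 (15, 4 and 6 counts). On the log2 scale the difference was -2.48 ± 0.69 (SE, edgeR adjusted p = 0.045), and the call was lost with 7 of the 9 libraries left out in turn, all but LM2 replicate 1 and BrM2 replicate 1 (adjusted p = 0.052 to 0.18). The other 6, NFKB1, RELA, CEBPB, JUN, FOSL1 and ATF2, did not pass in any comparison without the block, and neither did the 6 proteins known to set the stability of PTGS2 mRNA. With the block 3, 3 and 2 of the 7 factors were called in LM2 against Par, BrM2 against Par and BrM2 against LM2, and 1, 2 and 3 of the 6 stability proteins. Among them, in LM2 against Par, CELF2 (log2 fold change 1.06, adjusted p = 0.00019) and FOSL1 (0.58, adjusted p = 0.0067) passed also without replicate 1 of every line (adjusted p = 0.0056 and 0.041 with the block). FOSL1, the most abundant of the factors, was at 325 ± 116 CPM in Par, 498 ± 237 in LM2 and 336 ± 97.5 in BrM2, and KHSRP, the most abundant of the stability proteins, at 198 ± 41.2, 214 ± 74.8 and 324 ± 118 CPM.

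**Figure D4:**
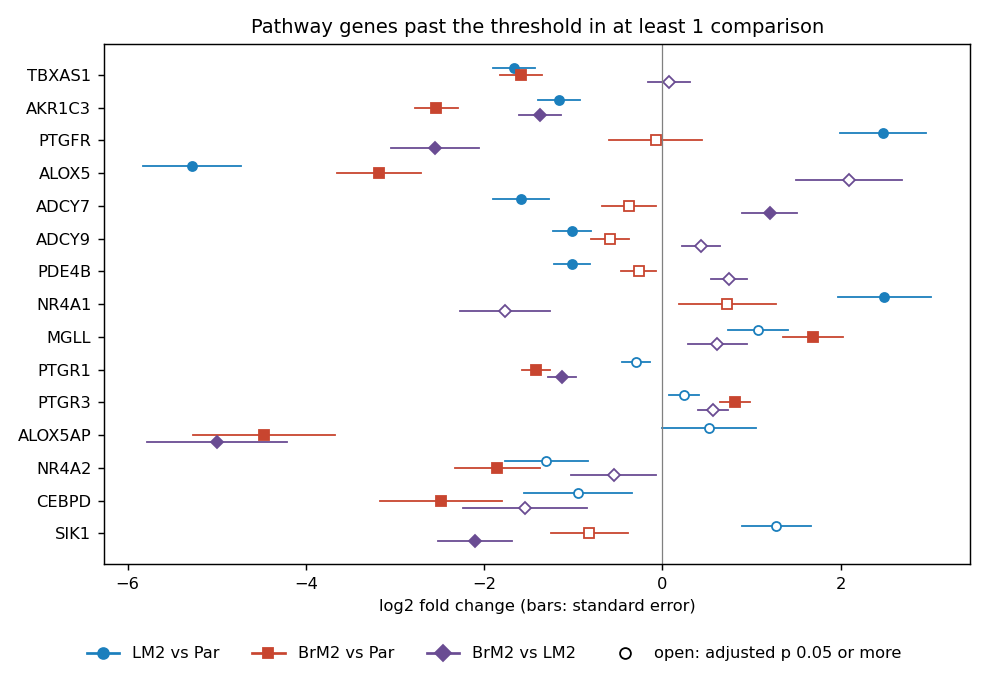
Log2 fold changes (horizontal axis) with their standard errors for the 15 pathway genes called in at least 1 comparison, in edgeR without the block. Filled symbols have an adjusted p under 0.05. ALOX5, TBXAS1 and AKR1C3 lie left of 0 in both comparisons with Par, while PTGFR and NR4A1 lie right of 0 in LM2 against Par.

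The genes whose log2 CPM ran most like that of PTGS2 over the 9 libraries, among 11875 genes ranked, were FAM155A (Pearson's r = 0.96), KCNQ3 (0.95), PINLYP (0.94), ENSG00000272870 (0.94) and LEF1 (0.94). The 9 points share 3 lines and 3 replicate numbers, so that the likeness is a description. LEF1, a transcription factor of the Wnt pathway, was at 3.56 ± 1.15 CPM in Par, 12.2 ± 0.527 in LM2 and 10.3 ± 1.09 in BrM2. KCNQ3, a potassium channel subunit, was at 0.369 ± 0.282, 4.99 ± 1.81 and 3.50 ± 0.366 CPM, and FAM155A at 0.314 to 2.04 CPM in Par, 6.39 to 14.0 CPM in LM2 and 8.32 to 12.3 CPM in BrM2. Each was lowest in Par, which their choice by likeness to PTGS2 over the same libraries largely fixed. LM2 and BrM2 overlapped in FAM155A and KCNQ3, while the LM2 libraries of LEF1 (11.8 to 12.8 CPM) were above those of BrM2 (9.06 to 11.1 CPM).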

How the data were processed

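RNA was extracted with on-column DNase digestion, and the authors sequenced stranded mRNA libraries from both ends. They mapped and counted the reads with STAR (2.7.0 per the labels) on hg38, and deposited raw read counts per gene. Which strand was counted is not given in the sources used here. A second deposited table, of the authors' DESeq2 fold changes and p-values against Par, was not used. The 9 members, the gene lists and the tests were chosen with earlier results of these data known.

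The count table had 58887 rows. For 3 repeated identifiers with identical counts 1 row was kept. The filter, written after HTSFilter, tried 100 thresholds from 1 to 200 and kept the genes whose largest normalized count exceeded 47.15, where the smoothed mean Jaccard index (loess span 0.3) was highest. Its largest mean was 0.943. Counts were tested in edgeR 4.0.16 (R 4.3.3, limma 3.58.1), with TMM normalization and the 2-sided quasi-likelihood test, with the 3 lines as groups over all 9 libraries and no block. The Benjamini-Hochberg method was used for adjusted p, with a threshold of 0.05. The standard error is the log2 fold change divided by the square root of F, and confidence intervals are at 95%. CPM are counts scaled to the normalized library size, and log2 CPM used a prior count of 2. At 14371858 to 24511786 counts per library, 3 counts (0.115 to 0.221 CPM) were taken as the floor. Intervals on counts cover counting error only. Exon lengths, GC content, overlaps and shared 50-base stretches came from a reference annotation on an earlier genome build than that of the counts. Gene positions and promoters came from RefSeq (GRCh38.p14). The fits were also run on simulated data, for LM2 against Par only and with a dispersion near that of the block fit and below that of the main fit. The outcome is not given and is not used as support.

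Pairing by replicate number was checked across genes. After subtraction of line means, log2 CPM of same-numbered libraries of different lines correlated at 0.23 to 0.90 in 9 of 9 pairs. Subtracting a line's mean ties its deviations together, so a shift of replicate 1 shared by the lines makes replicates 2 and 3 correlate too. The 9 values are therefore not separate, and they cannot show that replicates 2 and 3 were matched. Libraries of unlike numbers were not compared, and the labels give only the numbers. Fits that treat the numbers as pairs, by the replicate block, are given beside the main fit. The main fit has no block and ignores any pairing. Adding the replicate block lowered the common dispersion from 0.110 to 0.0207. Besides the members, the text names listed genes past the threshold in at least 1 comparison, the most abundant of a list, and the 5 tested genes with a mean of at least 50 counts that correlate best with PTGS2. Other listed genes in the text (PLA2G4A, ACSL4, PTGR2, CELF2, those that complete a list and those at or near 0 counts) were named after their values were seen. Alternatives were DESeq2 1.42.0, relative log expression, the block, another filter or none, only the lines compared, and leaving out libraries. All settings for HPGD and PTGER2 without the filter were added after the data were seen. PER1, a listed gene, was not analysed here. Figures were drawn with matplotlib 3.10.9 in Python 3.11.15, with numpy 2.4.6 and pandas 2.3.3.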

Additional observations from a re-analysis of the deposited data

Results flagged for a closer look

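The 2 sub-populations differed from each other in 8 genes of the pathway, that is, their changes against the shared Par libraries were unequal by edgeR's test of BrM2 against LM2 (values on the log2 scale, n = 3 libraries each). Of those tested after the filter they were 1 of 6 members and 6 of 54 listed genes, where 8.10% of all genes were called, and with the replicate block 3 members (also PTGS1 and PTGES) and 21 listed genes differed, beside 37.5% of all genes. Higher in BrM2 were the receptors PTGER2 (2.61, in the fit without a filter) and PTGER4 (1.03) and the adenylyl cyclase ADCY7 (1.21), whose call was lost with 7 of the 9 libraries left out in turn. Lower in BrM2 were AKR1C3 (-1.37), PTGR1 (-1.12), PTGFR (-2.55), SIK1 (-2.10) and ALOX5AP (-5.00). For ALOX5AP the BrM2 libraries had 3, 0 and 1 counts, and the fitted value depends on the prior count. PTGER2 and PTGER4, the Gs-coupled PGE2 receptors, were thus both higher in BrM2, while PTGFR was higher in LM2.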

How the results depend on the processing

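PTGS2, PTGER2, HPGD and PTGIS rest on at most 98 counts in a library, and each line has 3 libraries. The replicate block takes same-numbered libraries as pairs, which the labels do not state. It turned the calls of PTGS1 and PTGS2 in LM2 against Par into passes, and those of PTGS2, PTGES and PTGER2 in BrM2 against Par. In BrM2 against LM2 it did so for PTGS1 and PTGES, and it changed no other call of a member. With the replicate block edgeR called 4510 genes, 2 members and 22 listed genes in LM2 against Par, 5577, 4 and 23 in BrM2 against Par, and 4896, 3 and 21 in BrM2 against LM2, where without it there were 1134, 0 and 8, then 1733, 2 and 9, then 1057, 1 and 6. DESeq2 with the block called 4608, 2 and 21, then 5575, 4 and 24, then 4934, 3 and 22. DESeq2 without it called 1893 genes, 1 member and 14 listed genes in LM2 against Par, and 1824 genes and 10 listed genes in BrM2 against LM2. Without a filter on low counts 1 member was called in LM2 against Par and 2 in BrM2 against LM2, and with only the 2 lines of the comparison BrM2 against LM2 had 598 genes and 0 members. The causes were not tested.

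With 1 library or 1 replicate number left out, the calls ranged from 70 to 4327 genes, 0 to 2 members and 0 to 20 listed genes in LM2 against Par, from 159 to 5274, 0 to 4 and 1 to 19 in BrM2 against Par, and from 53 to 4257, 0 to 2 and 0 to 17 in BrM2 against LM2. Without replicate 1 of every line and with the block, 3651 genes and 18 listed genes were called in LM2 against Par (PTGES -0.014), 4808 and 16 in BrM2 against Par, and 3725 and 15 in BrM2 against LM2, with 1, 3 and 2 members. Without replicate 2 or without replicate 3 of every line, no member kept its call among the 6 tested, PTGER4 included (adjusted p = 0.13 and 0.11 in BrM2 against Par), while its value stayed at 1.46 and 1.44. PTGER2 in BrM2 against LM2 was lost without replicate 3 (2.19, adjusted p = 0.12). Some calls of listed genes that held with any 1 library left out were lost without replicate 2 and without replicate 3 of every line. They were those of TBXAS1, PTGR1 and ALOX5AP, of AKR1C3 in BrM2 against LM2 and of ALOX5 in BrM2 against Par (edgeR adjusted p = 0.060 to 0.28). ALOX5 in LM2 against Par was lost without replicate 2 (adjusted p = 0.064). Signs turned only for values that did not pass: PTGES in LM2 against Par (-0.22 to 0.47 over the libraries left out), PTGES2 (-0.70 to 0.23, -0.66 to 0.27 and -0.54 to 0.62 in the 3 comparisons) and HPGD (-0.33 to 0.54, -0.68 to 0.28 and -0.51 to 0.044), and HPGD in DESeq2 with the block (0.042 in LM2 against Par).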
